A study of Rattus norvegicus with 12 samples.

Results

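The cone phototransduction genes are the genes whose products turn light into an electrical signal in cones, the photoreceptors of daylight and colour. They were chosen by name from a list of 10: the opsin genes Opn1sw and Opn1mw, the transducin genes Gnat2, Gnb3 and Gngt2, the phosphodiesterase genes Pde6c and Pde6h, the arrestin gene Arr3 and the channel genes Cnga3 and Cngb3. Of these 10, 9 were found among the 30560 genes of the deposited table, and all 9 passed the filter on low counts. Gngt2 was not analysed here, because no row carried its name. The samples were retinal total RNA of rats (Rattus norvegicus), 1 library per rat. The controls were 6 rats given an intravitreal injection of 2 µL PBS, and the treated group was 6 rats given 2 µL of 20 mM NMDA. NMDA activates one class of glutamate receptors and can injure inner retinal neurons by overstimulation, and the series title calls the rats a glaucoma model. The sources used here name no strain, age, sex or time from injection to collection. Libraries are named by group and label number, PBS 1 to PBS 6 and NMDA 1 to NMDA 6.

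In a cone, light changes the shape of an opsin, which activates the G protein transducin. Transducin relieves the inhibition of a phosphodiesterase, the phosphodiesterase breaks down cyclic GMP, and cyclic nucleotide-gated channels in the outer segment close. Arrestin binding to phosphorylated opsin ends the response. Rods, the photoreceptors of dim light, run the same steps with their own copy of almost every part, and in the rat they far outnumber cones. NMDA receptors are best known on ganglion and amacrine cells of the inner retina, not on photoreceptors.

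The libraries held 16415611 to 34022023 counts each, and 16260 genes were tested for NMDA against PBS (edgeR quasi-likelihood test, two-sided, Benjamini-Hochberg adjustment over all of them, threshold 0.05). The test called 37.9% of all genes, 17.5% lower and 20.4% higher with NMDA. With library size as the only scaling, the calls were 4233 higher and 2323 lower, so that 64.6% of them were higher in place of 53.8%. The tissue label was met by its markers, with the rod arrestin gene Sag at a mean of 5799 CPM (the gene's counts relative to the library total, adjusted between libraries by TMM factors) in the PBS libraries. Of 10 ganglion cell markers 9 fell. On the second principal component NMDA 1 (62.2) and NMDA 3 (-32.5) stood at opposite ends, and the 5 melanin genes Tyr, Tyrp1, Dct, Pmel and Mlana summed to 486 CPM in PBS 5 and 690 CPM in NMDA 3, against 26.6 to 142 CPM in the other libraries. Counts of called cone genes are therefore also given without PBS 5, NMDA 1 and NMDA 3.

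Of the 9 cone phototransduction genes, Opn1mw, Arr3 and Gnat2 fell after NMDA, Gnb3 rose, and 5 did not pass the test. The falls were of 1.27- to 1.62-fold and the rise was of 1.71-fold. The share called, 4 of 9, stood beside 37.9% of all genes; with 9 genes this is close to the background and is no result about the list. The median log2 fold change of the 9 genes was -0.24, against 0.01 over all genes tested. The groups had no overlap in 3 of the 9, against 18.1% of all genes tested. In these 3, Opn1mw, Arr3 and Gnat2, each NMDA library was lower than each PBS library, as in 8.66% of all genes. In none of the 9 was each NMDA library higher, as in 9.43% of all genes. Without PBS 5, NMDA 1 and NMDA 3 the same 3 genes and Pde6c were called lower and Gnb3 higher. These are levels of a whole tissue, in which fewer cells of a type and less RNA per cell cannot be told apart.

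Levels between genes are compared here per length, as the deposited FPKM (fragments per kilobase of gene, scaled to library total). In the PBS libraries Gnb3 was the most abundant of the 9, at 189 ± 30.9 FPKM (SD, n = 6). Gnat2 and Arr3 followed at 103 ± 6.90 and 97.5 ± 7.79 FPKM, and their ranges overlapped. Opn1mw stood at 42.0 ± 4.93 FPKM, apart from both neighbours in the order. Pde6h, Pde6c and Opn1sw came next at 19.6 ± 2.43, 17.5 ± 1.86 and 9.25 ± 2.96 FPKM, each overlapping the next. Cngb3 was at 3.30 ± 0.553 FPKM and Cnga3 lowest, at 0.675 ± 0.143 FPKM, with no overlap between them. The rod counterparts were far higher: the FPKM of Gnat1 was 35.1 ± 2.48 times that of Gnat2 in the same library (transducin alpha). For the channel subunit Cnga1 over Cnga3 the factor was 459 ± 104, for arrestin (Sag over Arr3) 35.4 ± 3.26, and for the beta subunit (Gnb1 over Gnb3) 8.83 ± 1.79, the smallest of the 7 pairs compared.

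**Figure D1:**
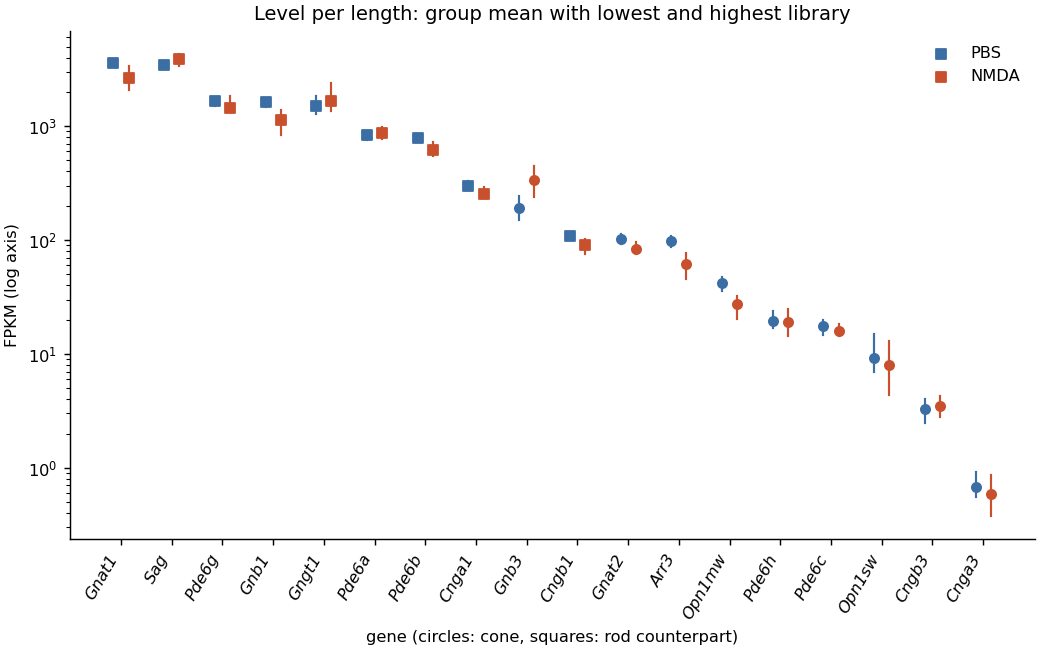
Level per length in FPKM on a log axis (points: mean of 6 libraries, lines: lowest to highest library) of 9 cone genes (circles) and 9 rod counterparts (squares), in order of the PBS mean. Gnb3 is the highest cone gene at 189 FPKM with PBS and Cnga3 the lowest at 0.675 FPKM, and the PBS mean of each rod gene but Cngb1 lies above that of Gnb3.

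Of the opsin genes, Opn1mw fell and Opn1sw did not pass. Opn1mw encodes the middle-wavelength opsin, the pigment of most rat cones (ENSRNOG00000051529, chromosome X, 151905096 to 151925388; positions of genes are those of the deposited table, with no build named for them). Its lowest, median and highest levels were 46.7, 54.4 and 61.6 CPM with PBS and 25.0, 33.6 and 41.4 CPM with NMDA. No NMDA library reached the lowest PBS library, and NMDA 6 was lowest of all. Mean levels were 54.2 ± 6.28 CPM with PBS and 34.05 ± 5.59 CPM with NMDA (SD, n = 6 each), and Opn1mw fell by 0.67 ± 0.11 (SE) on the log2 scale (edgeR adjusted p = 0.000568).

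Opn1sw encodes the short-wavelength opsin, which in rodents responds to ultraviolet light (ENSRNOG00000006874, chromosome 4, 57977313 to 57980457). Its lowest, median and highest levels were 11.5, 14.1 and 24.9 CPM with PBS and 6.91, 12.03 and 21.5 CPM with NMDA. The groups overlapped over most of their ranges, PBS 4 was highest of all, and 2 of 6 NMDA libraries lay below the lowest PBS library. Its log2 fold change was -0.26 (95% interval -0.83 to 0.32; edgeR adjusted p = 0.485), an interval that holds both no change and a fall as large as that of Opn1mw. The value rested on single libraries, at -0.066 without PBS 4 and -0.47 without NMDA 1, and did not pass in either case (edgeR adjusted p = 0.865 and 0.132). The within-group spread was the widest of the 9 genes in both groups, 31.8% of the mean with PBS and 39.8% with NMDA, against 11.6% and 16.4% for Opn1mw.

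Opn1sw made up 17.8% ± 3.43 of the summed FPKM of both opsins with PBS and 22.3% ± 5.67 with NMDA (SD, n = 6 each). The lowest share was 14.1% (PBS 3) and the highest 28.7% (NMDA 1), and the groups overlapped. On the scale of log2(FPKM + 0.1) the ratio of Opn1sw to Opn1mw was 0.38 higher with NMDA (two-sided exact permutation p = 0.141, adjusted p = 0.282 over 3 pairs of partner genes). The difference between the opsins in the first test was thus not shown by a direct test.

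The promoters of Opn1mw, Arr3 and Opn1sw are shown. Each is the 250 bases before the gene's start, 5′ to 3′ on the gene's strand, from RefSeq in the build GRCr8, at chrX:157056105-157056354 (+), chrX:69739709-69739958 (+) and chr4:58945826-58946075 (-). RefSeq promoters were at hand for 5 of the 9 genes. Capitals mark TAATCC, the core letters bound by CRX and OTX2, the homeodomain factors of photoreceptors.
Opn1mw: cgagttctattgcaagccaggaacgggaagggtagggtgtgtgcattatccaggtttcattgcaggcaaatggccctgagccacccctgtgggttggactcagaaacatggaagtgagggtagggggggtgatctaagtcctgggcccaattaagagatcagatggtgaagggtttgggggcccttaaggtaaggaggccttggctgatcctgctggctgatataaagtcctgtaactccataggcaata
Arr3: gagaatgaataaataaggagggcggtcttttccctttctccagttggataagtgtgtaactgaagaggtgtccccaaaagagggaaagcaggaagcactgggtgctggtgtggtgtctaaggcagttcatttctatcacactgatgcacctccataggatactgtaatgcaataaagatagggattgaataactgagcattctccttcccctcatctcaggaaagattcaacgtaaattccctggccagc
Opn1sw: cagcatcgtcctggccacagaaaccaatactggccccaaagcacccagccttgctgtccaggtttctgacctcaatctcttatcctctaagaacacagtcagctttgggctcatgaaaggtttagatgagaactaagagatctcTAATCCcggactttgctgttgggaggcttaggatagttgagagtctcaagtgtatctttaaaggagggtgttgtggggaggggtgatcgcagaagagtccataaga
TAATCC or its reverse complement GGATTA was present in 1 of the 5 promoters, that of Opn1sw, where its first base lay 106 bases before the start. The letters occurred in 6.34% of all 33469 RefSeq promoters cut to the same length. AGGTCA or TGACCT, a short site bound by nuclear receptors such as the thyroid hormone receptor, was also in 1 of the 5, again that of Opn1sw, and in 14.1% of all promoters. The windows of Opn1mw and Arr3, which fell, and of Cnga3 and Pde6h, which did not pass, held neither set of letters. With 5 promoters this is no result about the list. A link between these letters and the changes with NMDA was not tested.

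The transducin subunits moved in opposite directions. Gnat2 encodes the alpha subunit, which carries the signal from opsin to phosphodiesterase (ENSRNOG00000019296, chromosome 2, 195726762 to 195735866). Its lowest, median and highest levels were 145.1, 161 and 174 CPM with PBS and 113, 120.0 and 144.7 CPM with NMDA. The groups were separate by a narrow margin, between PBS 1 and NMDA 2. The mean fell from 160 ± 10.7 to 125.8 ± 13.5 CPM (SD, n = 6 each; log2 fold change -0.35 ± 0.07 SE, edgeR adjusted p = 0.00171). Its spread with PBS, 6.68% of the mean, was the smallest of the 9 genes.

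Gnb3 encodes the beta subunit of cone transducin and is also expressed in ON bipolar cells, the interneurons excited by light onset (ENSRNOG00000015541, chromosome 4, 157639469 to 157645173). Its lowest, median and highest levels were 240.4, 289 and 390.2 CPM with PBS and 370.4, 501 and 668 CPM with NMDA. All but 1 NMDA library lay above the highest PBS library, the exception being NMDA 3, and NMDA 5 and NMDA 6 were highest. The mean rose from 300.1 ± 49.6 to 514 ± 124 CPM (SD, n = 6 each; log2 fold change 0.78 ± 0.16 SE, edgeR adjusted p = 0.00227).

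**Figure D2:**
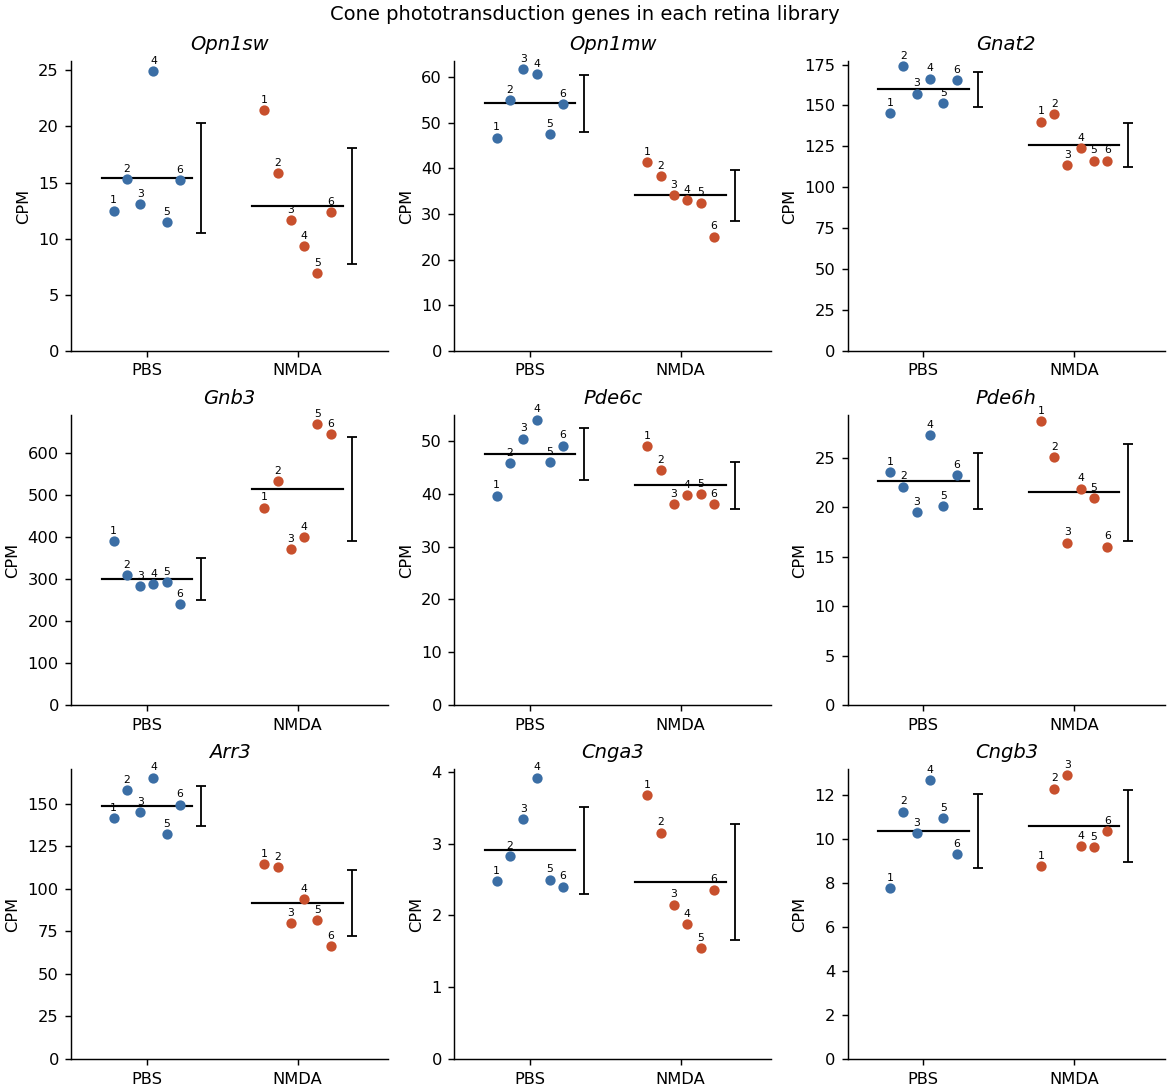
CPM (y axis from 0) of the 9 cone phototransduction genes in 6 PBS and 6 NMDA libraries, each point 1 library with its number, with the mean as a line and the SD as a bar. The NMDA points of Opn1mw, Gnat2 and Arr3 all lie below the PBS points, those of Gnb3 lie above them except NMDA 3, and the other genes overlap.

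The phosphodiesterase subunits did not pass. Pde6c, the catalytic subunit of cones (ENSRNOG00000016593, chromosome 1, 235909775 to 235965315), had its lowest, median and highest levels at 39.7, 47.6 and 54.1 CPM with PBS and 38.0, 39.9 and 49.1 CPM with NMDA. The groups overlapped, with PBS 1 among the low NMDA values and NMDA 1 inside the PBS range. Its log2 fold change was -0.19 (95% interval -0.37 to -0.02, edgeR adjusted p = 0.0792). It passed without PBS 1 (-0.24, edgeR adjusted p = 0.0261) and without NMDA 1 (-0.26, edgeR adjusted p = 0.0142). Pde6h, the inhibitory subunit of cones (ENSRNOG00000005947, chromosome 4, 169857812 to 169872969), had 19.6, 22.7 and 27.4 CPM with PBS and 16.02, 21.4 and 28.7 CPM with NMDA as lowest, median and highest. Its NMDA range spanned the whole PBS range, and its log2 fold change was -0.08 (95% interval -0.38 to 0.22, edgeR adjusted p = 0.705). With single libraries left out it ran from -0.19 without NMDA 1 to -0.0052 without NMDA 6. The ratio of Pde6h to Pde6c was 0.09 higher with NMDA on the scale of log2(FPKM + 0.1) (two-sided exact permutation p = 0.439, adjusted p = 0.439).

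The channel subunits were the least abundant members and did not pass either. Cnga3, the subunit that forms the cone channel's pore (ENSRNOG00000051950, chromosome 9, 39448034 to 39493183), had between 47 and 108 counts per library. Its lowest, median and highest levels were 2.40, 2.66 and 3.92 CPM with PBS and 1.55, 2.25 and 3.68 CPM with NMDA. In 4 of 6 NMDA libraries it lay below every PBS library, and NMDA 1 and NMDA 2 lay within the PBS range. The log2 fold change was -0.24 (95% interval -0.71 to 0.22, edgeR adjusted p = 0.413), an interval that holds both no change and a fall like that of Opn1mw. It was -0.14 without PBS 4 or without NMDA 5 and -0.40 without NMDA 1, and passed in none of these. Cngb3, the modulatory subunit (ENSRNOG00000006084, chromosome 5, 32746988 to 32995121), had 7.79, 10.6 and 12.7 CPM with PBS and 8.78, 10.02 and 12.9 CPM with NMDA. Its log2 fold change was 0.03 (95% interval -0.24 to 0.31, edgeR adjusted p = 0.866), an interval that leaves out falls of the size of Opn1mw or Arr3. The ratio of Cnga3 to Cngb3 was 0.28 lower with NMDA (a difference of -0.28 on the scale of log2(FPKM + 0.1), two-sided exact permutation p = 0.188, adjusted p = 0.282).

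Arr3, which encodes the cone arrestin that quenches the activated opsin, had the largest fall of the 9 genes (ENSRNOG00000002904, chromosome X, 65698699 to 65712153). Its lowest, median and highest levels were 132, 147 and 165 CPM with PBS and 66.2, 87.8 and 115 CPM with NMDA. NMDA 1 and NMDA 2 were nearest to the PBS libraries and NMDA 6 was farthest. The mean fell from 149 ± 11.9 to 91.5 ± 19.3 CPM (SD, n = 6 each; log2 fold change -0.70 ± 0.12 SE, edgeR adjusted p = 0.000846). In the deposited coordinates P2ry4, a nucleotide receptor gene (65683232 to 65721748), spans Arr3, and Pdzd11, a scaffold protein gene (65704067 to 65721642), overlaps it. Reads there could be assigned to more than 1 gene, since the sources used here state no strand setting. The PBS and NMDA means of P2ry4 were 64.1 ± 5.72 and 59.1 ± 2.92 CPM, and those of Pdzd11 were 9.08 ± 1.07 and 7.98 ± 1.22 CPM (SD, n = 6 each). Neither passed (log2 fold changes -0.12 and -0.19, edgeR adjusted p = 0.136 and 0.232). No other member overlapped another gene of the table.

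Within each group single libraries ran through several of the genes. PBS 4 was the highest PBS library in 6 of the 9 genes (Opn1sw, Pde6c, Pde6h, Arr3, Cnga3 and Cngb3). NMDA 1 was the highest NMDA library in 6 (Opn1sw, Opn1mw, Pde6c, Pde6h, Arr3 and Cnga3) and the lowest in Cngb3. PBS 1 was the lowest PBS library in 4 genes (Opn1mw, Gnat2, Pde6c and Cngb3) and the highest in Gnb3. In log2 CPM, NMDA 1 lay 0.53 above the PBS mean for Opn1sw, 0.35 above it for Pde6h and Cnga3, and below it for Opn1mw (-0.38) and Arr3 (-0.37). NMDA 6 was the lowest NMDA library for Opn1mw (-1.10), Arr3 (-1.16) and Pde6h (-0.49), while NMDA 5 was the lowest for Opn1sw (-1.10) and Cnga3 (-0.86). NMDA 1 also stood near the PBS libraries in the summed CPM of 9 rod counterparts, 28540 against 27250 to 29800 CPM with PBS and 21680 to 26180 CPM in the other NMDA libraries. Lens markers summed to 72.6 CPM in NMDA 1, the lowest of all libraries, against 574 to 3123 CPM in the other libraries. Ganglion cell markers summed to 517.5 CPM in NMDA 1 and 559 CPM in NMDA 3, against 217 to 313 CPM in the other NMDA libraries. With PBS they summed to 798 to 982 CPM. What part these differences between libraries have in the cone values of NMDA 1 was not tested.

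**Figure D3:**
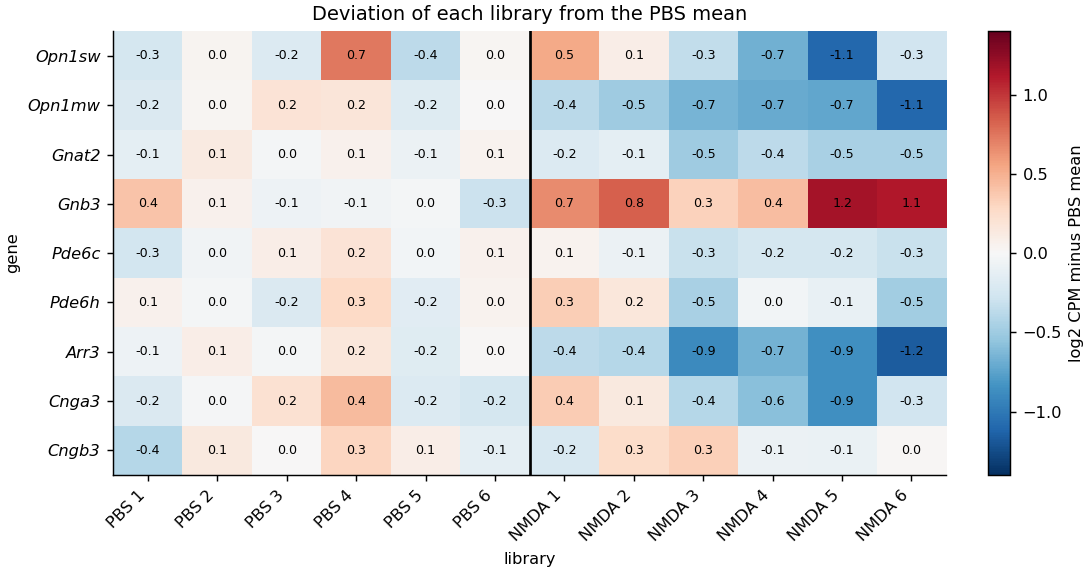
Log2 CPM of each gene (rows) in each library (columns) minus the mean of the 6 PBS libraries, with the value printed in each cell. Blue cells fill the NMDA columns of Opn1mw, Gnat2 and Arr3 and red cells that of Gnb3, while NMDA 1 and NMDA 2 are above the PBS mean for Opn1sw, Pde6h and Cnga3.

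Most rod genes of the same cascade also fell. Of 9 rod counterparts 6 fell and none rose, with a median log2 fold change of -0.28. Among all genes tested 17.5% were called lower and 20.4% higher. Gnat1 and Gnb1, of rod transducin, fell by 0.50 and 0.58 on the log2 scale, and Pde6b, of the rod phosphodiesterase, by 0.40 (edgeR adjusted p = 0.00289, 0.00136 and 0.00128). The channel genes Cnga1 and Cngb1 fell by 0.28 and 0.32 (edgeR adjusted p = 0.00704 and 0.0036). Pde6g, the inhibitory subunit, fell by 0.24 (edgeR adjusted p = 0.0344), a call lost in 13 of 23 alternatives with adjusted p up to 0.0748. Pde6a, Gngt1 and Sag did not pass (log2 fold changes 0.0076, 0.07 and 0.12). The 1.62-fold fall of Arr3 thus stood beside a rod arrestin, Sag, at 5799 ± 194 CPM with PBS and 6282 ± 660 CPM with NMDA (SD, n = 6 each; edgeR adjusted p = 0.195).

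**Figure D4:**
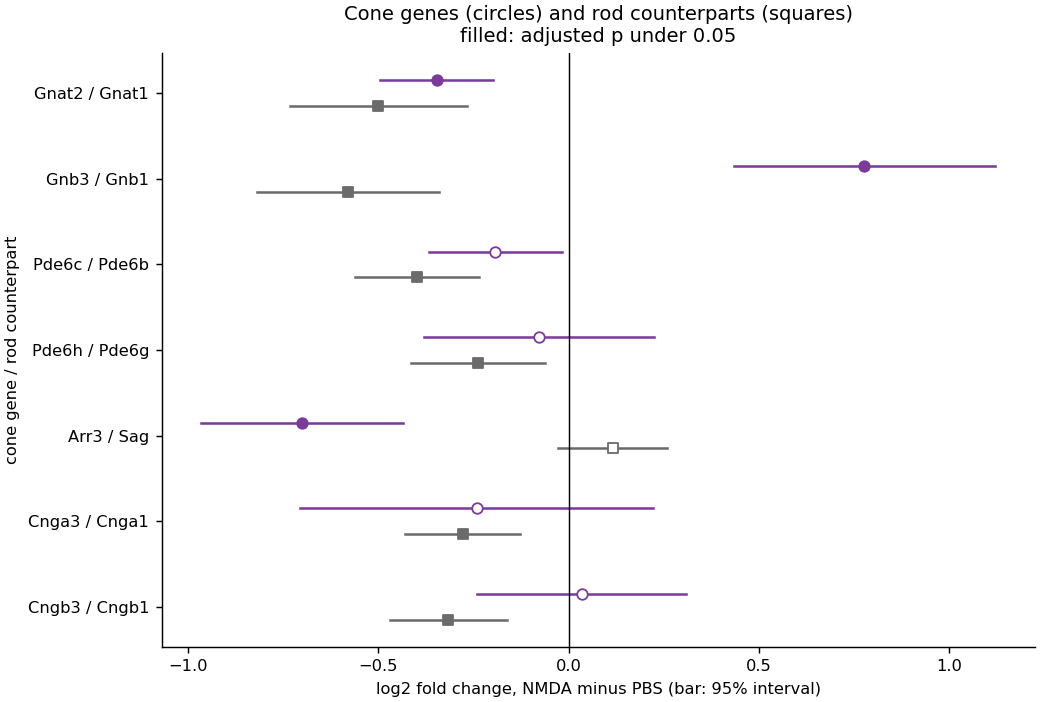
Log2 fold change (NMDA minus PBS, with 95% interval) of 7 cone genes (circles) each above its rod counterpart (squares), filled where the edgeR adjusted p is under 0.05. Gnb3 lies right of 0 at 0.78 and Gnb1 left of it at -0.58, and Arr3 lies at -0.70 beside Sag at 0.12.

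In 7 pairs, cone genes were set against their rod counterparts within each library, as the log2 ratio of CPM (prior count 2), which needs no scaling between libraries. Of the 7 pairs, 2 differed between the groups (exact permutation of the 12 library labels, two-sided, Benjamini-Hochberg adjustment over 9 pairs). The ratio of Gnb3 to Gnb1 was -4.16 ± 0.30 with PBS and -2.80 ± 0.59 with NMDA (SD, n = 6 each), a rise of 1.36 (exact permutation p = 0.00216, the smallest possible, adjusted p = 0.00974). It was higher in 6 of 6 NMDA libraries than in any PBS library, from -3.30 in NMDA 3 to -1.94 in NMDA 5 against -4.57 to -3.66 with PBS. Gnb3 is also expressed in ON bipolar cells, so in whole retina the ratio of Gnb3 to Gnb1 is not one of cones to rods alone. The ratio of Arr3 to Sag was -5.29 ± 0.13 with PBS and -6.12 ± 0.30 with NMDA, a difference of -0.83 (exact permutation p = 0.00216, adjusted p = 0.00974), and it was lower in 6 of 6 NMDA libraries. Both calls ended without PBS 5, NMDA 1 and NMDA 3 (1.62 and -0.90, both with adjusted p = 0.0714), where 5 against 4 libraries allow no smaller exact p than 0.0159.

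The other 5 pairs did not pass. Gnat2 to Gnat1 differed by 0.17 (exact permutation p = 0.186, adjusted p = 0.279), so that the falls of the cone and the rod transducin alpha gene were not shown to differ. Pde6c to Pde6b differed by 0.21 and Cngb3 to Cngb1 by 0.36 (exact permutation p = 0.039 and 0.0411, both with adjusted p = 0.0925). Without NMDA 1 the ratio of Cngb3 to Cngb1 passed (0.45, exact permutation adjusted p = 0.026). For Pde6h to Pde6g and Cnga3 to Cnga1 the differences were 0.15 and 0.0098 (exact permutation adjusted p = 0.326 and 0.97).

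**Figure D5:**
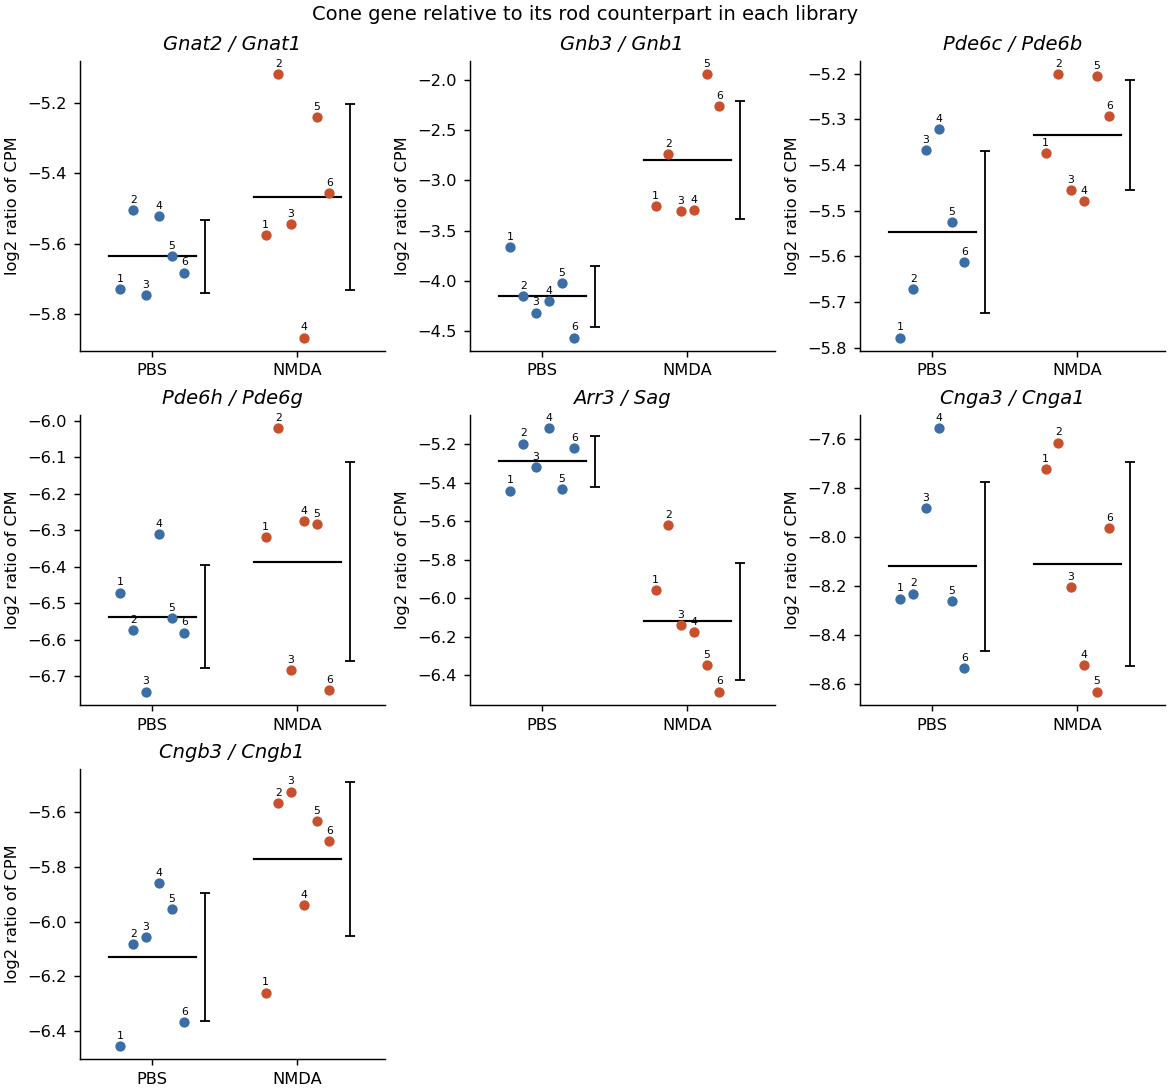
Log2 ratio of CPM of 7 cone genes, each to its rod counterpart, in 6 PBS and 6 NMDA libraries (points with library numbers, mean as a line, SD as a bar, y axis not from 0). The groups separate for Gnb3 / Gnb1, higher with NMDA, and for Arr3 / Sag, lower with NMDA, and overlap in the other 5 pairs.

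Many of the remaining steps of the cascade use products that rods and cones share or nearly share. The list read here also holds the rod exchanger gene Slc24a1. Of 16 tested genes of this list 10 fell and none rose, with a median log2 fold change of -0.27. Over all genes tested, 17.5% were called lower and 20.4% higher. Grk1, the kinase that phosphorylates opsins before arrestin binds, fell from 691 ± 61.8 to 465.8 ± 44.9 CPM (SD, n = 6 each; -0.57 ± 0.07 SE, edgeR adjusted p = 0.000132). Rcvrn (recoverin), the calcium sensor that restrains this kinase, fell by 0.49 on the log2 scale, and Gnb5, part of the complex that switches transducin off, by 0.37. Slc24a1, the rod cation exchanger, fell by 0.48 and Slc24a2, another exchanger gene, by 0.39. Slc24a4, a further exchanger gene of this list, did not pass (-0.056, edgeR adjusted p = 0.507). Guca1a, an activator of guanylate cyclase, fell by 0.33. The guanylate cyclase gene Gucy2d (-0.15) and the transducin switch-off genes Rgs9 (-0.14) and Rgs9bp (-0.18) did not pass (edgeR adjusted p = 0.0803, 0.0662 and 0.13).

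Of 15 tested genes that set photoreceptor identity 5 fell and 1 rose, with a median log2 fold change of -0.19. This number of calls is near the 37.9% of all genes and is no result about the list. Thrb, the thyroid hormone receptor gene needed for middle-wavelength opsin expression, fell from 112 ± 2.77 to 97.8 ± 3.88 CPM (SD, n = 6 each; -0.20 ± 0.03 SE, edgeR adjusted p = 0.000669), with no overlap between the groups. Crx, the homeobox gene of rods and cones, fell by 0.28, Nrl, which directs the rod fate, by 0.43 and Mef2d, a gene regulator of photoreceptors, by 0.20. Rorb, a nuclear receptor gene, rose by 0.30 (edgeR adjusted p = 0.0223), and Rxrg, a cone nuclear receptor gene, did not pass (-0.10, edgeR adjusted p = 0.623), both chosen after their values were seen. Among 15 other photoreceptor genes 7 fell and 3 rose, with a median of -0.16, beside 17.5% of all genes called lower and 20.4% higher. Ccdc136 fell by 0.39. Cnnm4, a metal transporter gene, rose by 0.48, Impg2, a gene of the matrix around photoreceptors, by 0.53 and Kcnv2, a potassium channel subunit gene named after its value was seen, by 0.19.

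ON bipolar cells also express Gnb3, and their genes were read beside it. Of 13 tested ON bipolar genes 5 fell and none rose, with a median log2 fold change of -0.18 and a highest single value of 0.16. The share called was near the 37.9% of all genes called in either direction, with 17.5% lower and 20.4% higher. Prkca, the kinase gene of rod bipolar cells, fell by 0.35 and Gnao1, the alpha subunit gene that works with Gnb3 in these cells, by 0.34 (edgeR adjusted p = 0.000647 and 0.00205). Pcp2, a modulator of that G protein, fell by 0.26 and Nyx (nyctalopin) by 0.20. Their summed level ran from 1918 to 2107 CPM with PBS and from 1586 to 2028 CPM with NMDA. Rgs9bp belongs to this list as well as to the shared cascade. What part ON bipolar cells have in the rise of Gnb3 was not tested.

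Markers of other cells moved with the same contrast. Of 16 microglia markers 13 rose and 1 fell, beside 20.4% of all genes called higher and 17.5% lower. Their summed level was 124 to 160 CPM with PBS and 195 to 331 CPM with NMDA. Among the NMDA libraries it was lowest in NMDA 2 and highest in NMDA 6. Of 11 genes of the pigment epithelium list, which supplies photoreceptors with retinoid, 5 fell and none rose. This stood beside 37.9% of all genes called, 17.5% lower and 20.4% higher. Rpe65, the isomerase of that epithelium, fell by 1.67 on the log2 scale, and Rlbp1, which Müller glia also express, by 1.14 (edgeR adjusted p = 0.00119 and 0.000119). The summed level of that list was 480 to 796 CPM with PBS and 208 to 906 CPM with NMDA, highest in PBS 5 and NMDA 3 through the melanin genes. None of 13 lens markers passed the edgeR test. Apart from Lim2, a lens gene without a count in 1 or more libraries, no tested marker of these lists was at 0 in any library. What part these cell contents have in the cone gene values was not tested.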

How the data were processed

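Total RNA of rat retina was measured in 12 libraries, 6 per group. Counts per gene were deposited as whole numbers, per the file headers. The table also holds FPKM, per the file headers, which for the 9 genes equalled the count over 1 gene length and the library total. Bowtie2, RSEM 1.3.1 and DESeq2 1.4.5 are named in the submitters' processing notes without roles. Genome build, strand setting and handling of multiply matching reads are not given in the sources used here.

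After filterByExpr (count minimum 10, total minimum 15), 16260 genes entered a fit of edgeR 4.0.16 in R 4.3.3 (TMM scaling, robust quasi-likelihood, group as the only term). The test was tested on simulated data. CPM are counts relative to the library total times its TMM factor, and 95% intervals come from the fit. Ratios were tested by exact permutation (scipy 1.17.1). Alternatives used DESeq2 1.42.0, limma 3.58.1, other scalings and filters, FPKM with pseudocounts of 0.1 and 1, a replicate block, and each library left out. The exclusion of 3 libraries and the ratios of partner genes were added after seeing the data. Another partner ratio, Arr3 to Gnat2, was also computed and passed the test, but it had been picked after both genes' values were seen, so it is not reported and the adjustment covers the other 3. Cone to rod ratios were planned for 10 pairs and adjusted over 9, since Gngt2 was not analysed here; 2 of the 9 did not pass and, like some genes of the lists, are not reported here. Members and lists were chosen with earlier results of these data known. Besides the 9 genes and their rod counterparts, up to 4 genes with the smallest adjusted p per list, further cascade genes and overlapping genes were named. Libraries of a group differed beyond counting noise (chi-square per degree of freedom at least 12.2).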

Additional observations from a re-analysis of the deposited data

Results flagged for a closer look

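In 56 sets of 6 values (genes of cones and rods and their ratios, by group), a library was looked for whose gap to its nearest neighbour took more than 0.625 of the whole range, which chance gives in about 1 of 20 sets. Opn1sw in PBS 4 stood at 24.9 CPM, with the nearest PBS library at 15.3 CPM. Among the rod counterparts, NMDA 1 had 1197 CPM of Gngt1, with the nearest NMDA library at 777 CPM, and 2296 CPM of Pde6g, with the nearest at 1718 CPM. The number of values flagged is near what chance gives in 56 sets.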

How the results depend on the processing

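Opn1mw, Arr3, Gnat2 and Gnb3 kept their direction and their call in all 23 alternatives, with log2 fold changes from -0.80 to -0.60, -0.79 to -0.62, -0.39 to -0.30 and 0.69 to 0.89. Pde6c passed in 5 alternatives, among them the DESeq2 Wald test (-0.20, adjusted p = 0.0497), limma voom with quality weights (-0.22, adjusted p = 0.0308) and the fit without PBS 5, NMDA 1 and NMDA 3 (-0.25, adjusted p = 0.0366). Cnga3 had too few counts for the filter of 10 CPM in 6 libraries. With single libraries left out Opn1sw ran from -0.47 to -0.066, Cnga3 from -0.40 to -0.14 and Pde6h from -0.19 to -0.0052, none past the threshold. Small values of genes that never passed changed sign: with single libraries left out Cngb3 ran from -0.038 to 0.10, Gngt1 from -0.081 to 0.14, Pde6a from -0.045 to 0.041 and the ratio of Cnga3 to Cnga1 from -0.089 to 0.12. Pde6a was at -0.0021 with DESeq2 size factors, -0.0022 with the DESeq2 Wald test and -0.025 with limma voom. Without PBS 5, NMDA 1 and NMDA 3 Gngt1 was at -0.049 and the ratio of Cnga3 to Cnga1 at -0.092.

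The count of cone to rod pairs past the threshold was 1 lower and 1 higher. With single libraries left out 1 to 2 were higher, and without PBS 5, NMDA 1 and NMDA 3 there were 0 lower and 0 higher. With same-numbered libraries compared as pairs (replicate block) there were 0 lower and 0 higher, a test whose smallest p of 0.0313 left the 2 pairs at an adjusted p = 0.141. With the replicate block in the edgeR fit the same 3 cone genes were lower and Gnb3 higher. The labels do not say that same-numbered libraries share a litter or day, so the numbers were not taken as pairs. Deviations of same-numbered libraries correlated at -0.19 to 0.153, and 1 of 12 libraries correlated best with its own number. Among the 9 genes Cnga3 had the lowest counts, 47 to 108 per library, while Opn1sw had the widest interval.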
